A study of Homo sapiens with 4 samples.

Results

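The hypoxia-inducible factor (HIF) pathway was followed through 10 genes in JJ012, an established human chondrosarcoma line, with and without Antcin K, a triterpenoid of the fungus Antrodia cinnamomea. The genes were taken by symbol from a deposited table of 61806 genes, and each symbol matched 1 entry. They comprise the subunit genes HIF1A, EPAS1 and ARNT, the oxygen-sensing and degradation genes VHL, EGLN1 and EGLN3, and the target genes CA9, BNIP3, NDRG1 and ADM. All 4 libraries came from JJ012 cells labelled wild type and grown in the same serum-containing medium. Of these, 2 were untreated and 2 received Antcin K at 10 µM for 24 h. No vehicle is named for the untreated cells and no oxygen level for either group. The line carries the limits of a single culture model, and nothing says that libraries of a group came from separate cultures, so the p-values rest on a spread between samples that may be purely technical. The series title concerns MMP-7 and cell motility, and does not mention hypoxia.

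HIF is a transcription factor made of an oxygen-sensitive α subunit and a stable β subunit. In oxygenated cells the prolyl hydroxylases of the EGLN family mark the α subunit, VHL recognises the mark as part of a ubiquitin ligase, and the protein is destroyed. When oxygen is low the α subunit persists, pairs with ARNT and binds hypoxia response elements beside genes for glycolysis, acid export, mitophagy and blood vessel growth. Control of the α subunit is therefore largely at the protein level, which transcript counts do not measure. Cartilage is poorly vascularised, and HIF-1α is known from mouse studies to be needed for the survival of growth plate chondrocytes.

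The libraries held 16911257 to 26270686 counted fragments. Untreated replicate 1 stood apart. It had 26% of its counts in mitochondrially encoded genes, against 12.9% to 19.3% in the other 3 libraries. The log2 counts of the untreated pair correlated less across genes (r = 0.963) than those of the Antcin K pair (r = 0.984). Untreated replicate 2 correlated more with Antcin K replicates 1 and 2 (r = 0.975 and 0.971) than with untreated replicate 1. For untreated replicate 1 the values with Antcin K replicates 1 and 2 were 0.951 and 0.964. These values are a description only, since genes are not independent replicates. Of the 8 markers fixed for the labelled cell type, SOX9, CHST11, VIM and SPARC were at 1 FPKM or more in every library, while COL2A1 was at 0 counts and ACAN and COL9A1 were at or near 0. COL1A1 stood at 5.05 and 2.15 FPKM in the untreated pair. It had 0.8 and 1.93 FPKM in the treated pair, so Antcin K replicate 1 was under 1 FPKM. Of 5 epithelial markers KRT8 and KRT18 passed that level. The epithelial list summed to 153 to 188 FPKM in untreated cells and 83.0 to 97.7 FPKM after Antcin K, most of it KRT18. The endothelial list, of interest because EPAS1 was named for endothelium, summed to only 0.95 to 1.51 FPKM over the 4 libraries. Blood markers summed to 1.42 to 2.73 FPKM, with PTPRC and HBB at 0 and CD3E at 0.67 to 2.0 FPKM. Muscle markers summed to 8.69 to 13.2 FPKM, most of it DES at 8.43 to 13.0 FPKM, with MYOD1 at 0. The part of these markers in the results was not tested.

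The core of the hypoxia response element is ACGTG or GCGTG. These letters were searched on both strands in the 250 bases before each RefSeq start (GRCh38.p14), where 8 of the 10 genes had an entry. At least 1 match was found for 6 of the 8, namely EGLN1, CA9, BNIP3, ADM, EPAS1 and HIF1A. Over all 35116 promoters of this length, 18.5% held ACGTG, 32.2% held GCGTG and 43.2% held either. The 4 stretches below are shown because they belong to an oxygen sensor and to 3 targets that range from abundant to nearly undetected. Capitals mark the matches, and CACGT or CACGC is the same core read on the other strand.
CA9, chr9:35673880-35673927, plus strand: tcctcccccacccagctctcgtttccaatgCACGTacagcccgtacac
EGLN1, chr1:231422288-231422330, minus strand: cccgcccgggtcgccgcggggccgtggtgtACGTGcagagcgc
BNIP3, chr10:131981993-131982096, minus strand: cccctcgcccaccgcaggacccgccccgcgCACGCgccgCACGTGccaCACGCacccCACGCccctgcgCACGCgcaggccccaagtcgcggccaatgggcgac
ADM, chr11:10304942-10305006, plus strand: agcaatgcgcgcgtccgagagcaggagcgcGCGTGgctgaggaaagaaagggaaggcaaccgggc
The match lay 14 to 18 bases before the start in CA9 and 9 to 13 bases before it in EGLN1. BNIP3 had 6 overlapping or neighbouring matches between 100 and 143 bases before the start, 2 of which form the palindrome CACGTG, also known as an E-box. ADM had its single match 97 to 101 bases before the start. EPAS1 and HIF1A held GCGTG and not ACGTG, and no match was found for ARNT, EGLN3 or the second of the 2 HIF1A entries in this window. A match describes letters only and is not evidence of a bound site.

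Per exonic length, the genes fell into 3 tiers in untreated cells. CA9, NDRG1, HIF1A and BNIP3 stood highest, at means of 10.6, 10.6, 9.70 and 8.57 FPKM, and neighbours in that order overlapped between their 2 libraries. ARNT, EPAS1, VHL and EGLN1 followed at 4.74, 2.76, 1.86 and 1.06 FPKM, where EPAS1 and VHL overlapped and the other neighbours did not. ADM at 0.0600 FPKM and EGLN3, listed at 0, were last. After Antcin K the order was NDRG1, CA9, BNIP3, ARNT, HIF1A, EPAS1, VHL, EGLN1, ADM and EGLN3, with overlap between CA9 and BNIP3, EPAS1 and VHL, and ADM and EGLN3. HIF1A stood above ARNT in untreated cells and below it after Antcin K, with no overlap between the 2 genes in either group.

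**Figure D1:**
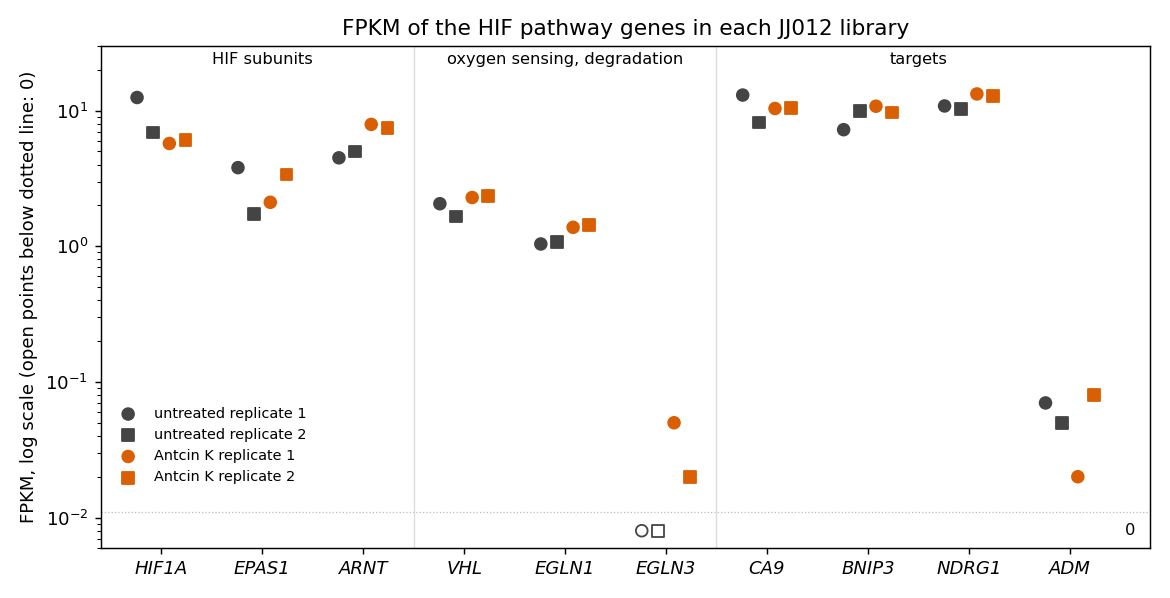
Deposited FPKM (log axis) of each of the 10 genes in the 4 libraries, with circles for replicate 1, squares for replicate 2, grey for untreated and orange for Antcin K. HIF1A was lower and ARNT higher in both Antcin K libraries, while EGLN3 and ADM lay at or below 0.0800 FPKM in every library.

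Of the 10 genes, 8 passed the filter on low counts. EGLN3 and ADM did not. By edgeR's quasi-likelihood test over 14717 genes, 0 of the 8 passed at an adjusted p under 0.05, against a background of 0% of all genes tested. At an unadjusted p under 0.05 the count was 2, HIF1A and ARNT, against 12.4% of all genes. The count was also 0 of 8 with DESeq2 (background 0.399%) and with a replicate block (0.177%). With no count filter, where EGLN3 and ADM were tested too, it was 0 of 10 (0.723%). Both Antcin K libraries lay above both untreated libraries for ARNT, VHL, EGLN1 and NDRG1, 4 of 8 genes, against 22.6% of all genes tested. Both lay below for HIF1A, 1 of 8, against 23.3%. The groups overlapped for EPAS1, CA9 and BNIP3. The median log2 fold change of the 8 genes was 0.23, beside -0.05 over all genes tested, and no test was made of that difference.

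HIF1A (ENSG00000100644, chromosome 14, 61695513 to 61748259, plus strand, hg38, protein-coding) encodes HIF-1α, the widely expressed oxygen-regulated subunit. It had 1691 and 667 counts in untreated replicates 1 and 2, and 611 and 529 counts after Antcin K. As CPM, counts scaled to a common library size by TMM, these were 63.6 and 37.4 in the untreated pair and 28.3 and 31.6 in the treated pair. Untreated replicate 1 was far above the other 3 libraries, and the lower untreated library was still above both treated ones. Means were 50.5 ± 18.6 CPM without and 30 ± 2.34 CPM with Antcin K (SD, n = 2 each). The log2 fold change was -0.76, or 1.69-fold lower, by edgeR (standard error 0.30, 95% interval -1.43 to -0.08, adjusted p = 0.384). Without untreated replicate 1, whose mitochondrial share was the highest of the 4, it was -0.31, and without untreated replicate 2 it was -1.08. In bulk RNA, fewer cells with a transcript and less of it per cell cannot be told apart. The antisense genes HIF1A-AS1 and HIF1A-AS3 overlap HIF1A on the opposite strand and held 2 and 11 counts over the 4 libraries.

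ARNT (ENSG00000143437, chromosome 1, 150809713 to 150876708, minus strand) encodes HIF-1β, the partner shared by both α subunits and by the aryl hydrocarbon receptor. It had 761 and 603 counts in the untreated pair and 1057 and 812 in the treated pair, or 28.6 and 33.8 CPM against 49.0 and 48.5 CPM. The treated libraries were nearly level with each other and above both untreated libraries. Means were 31.2 ± 3.62 CPM without and 48.7 ± 0.310 CPM with Antcin K (SD, n = 2 each). The log2 fold change was 0.64, or 1.56-fold higher, by edgeR (standard error 0.23, 95% interval 0.12 to 1.17, adjusted p = 0.376). It lay between 0.53 and 0.78 when each library was left out in turn.

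EPAS1 (ENSG00000116016, chromosome 2, 46293667 to 46386697, plus strand) encodes HIF-2α, the second oxygen-regulated subunit, which in mouse joints has been tied to cartilage breakdown. It had 727 and 235 counts in the untreated pair and 318 and 417 in the treated pair, or 27.4 and 13.2 CPM against 14.7 and 24.9 CPM. The spread inside each group exceeded the difference between the means of 20.3 ± 10.0 and 19.8 ± 7.20 CPM (SD, n = 2 each). Its log2 fold change was -0.04 with an edgeR 95% interval from -0.94 to 0.86 (adjusted p = 0.977), so a change of up to 1.82-fold higher or 1.92-fold lower lay inside the interval. The value was 0.59 without untreated replicate 1 and -0.46 without untreated replicate 2.

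Within each library the FPKM ratio of EPAS1 to HIF1A was 0.304 and 0.249 untreated, and 0.368 and 0.557 after Antcin K. HIF1A was thus the more abundant α transcript in all 4 libraries, and the ratio was higher in both treated ones. The ratio of ARNT to HIF1A was 0.360 and 0.722 untreated, and 1.38 and 1.23 after Antcin K. Both α transcripts summed to 3.63 and 1.73 times the level of ARNT in untreated cells, and to 0.990 and 1.27 times after Antcin K. These ratios share the HIF1A values given above and are not separate evidence. An exact two-sided permutation test of 2 against 2 libraries cannot give a p below 0.333, and no other test of the ratios was made.

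**Figure D2:**
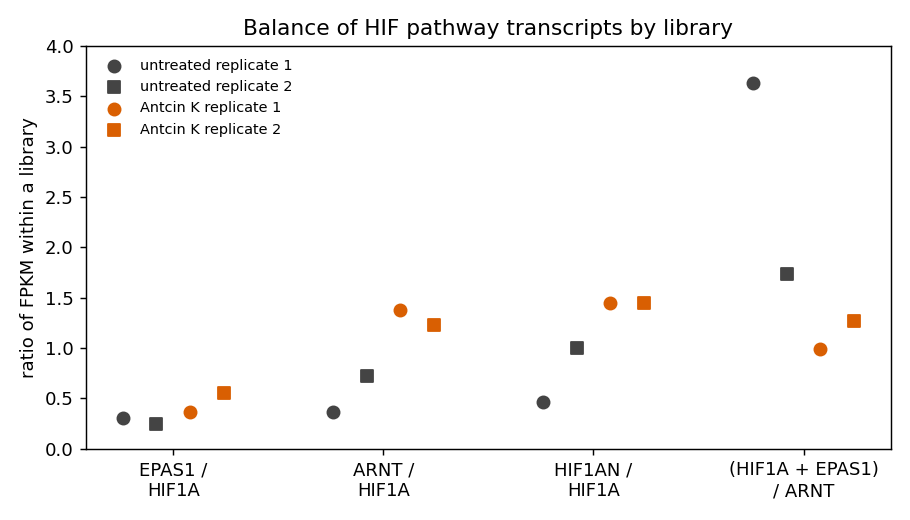
FPKM ratios between HIF pathway genes within each library, with circles for replicate 1, squares for replicate 2, grey for untreated and orange for Antcin K. The sum of HIF1A and EPAS1 over ARNT ran from 1.73 to 3.63 in untreated cells and from 0.990 to 1.27 after Antcin K.

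Among the genes that limit the α subunits, VHL (ENSG00000134086, chromosome 3, 10141778 to 10153667, plus strand) encodes the substrate receptor of the ubiquitin ligase. It stood at 10.2 and 8.74 CPM in the untreated pair and 11.0 and 11.9 CPM in the treated pair. The groups did not overlap, but the log2 fold change of 0.27 had an edgeR 95% interval from -0.35 to 0.89 (adjusted p = 0.695). EGLN1 (ENSG00000135766, chromosome 1, 231363751 to 231422287, minus strand) encodes PHD2, the main HIF prolyl hydroxylase in oxygenated cells. It had 147 and 108 counts in the untreated pair and 154 and 131 in the treated pair, or 5.53 and 6.05 CPM against 7.13 and 7.83 CPM. The log2 fold change was 0.37 with an edgeR 95% interval from -0.30 to 1.04 (adjusted p = 0.617), and 0.31 to 0.46 with each library left out in turn.

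EGLN3 (ENSG00000129521, chromosome 14, 33924227 to 34462774, minus strand) encodes PHD3, a hydroxylase that is itself strongly induced by HIF in many cells. It had 0 and 0 counts in the untreated pair and 8 and 2 counts in the treated pair. Over the group, 10 counts of 37601335 fragments (exact Poisson 95% interval 4.8 to 18.4) stand against 0 of 45027940. With the untreated group set at a floor of 3 counts, EGLN3 was 3.99-fold higher after Antcin K as counted. That figure takes the 10 treated counts as they stand and leaves out their own counting error. It is not a lower bound, since the exact Poisson 95% upper limit for the 0 untreated counts was 3.69. Most of the treated counts came from 1 library, and the 2 counts of the other are under the floor of 3 counts. The deposited interval of EGLN3 spans the whole of SPTSSA on the same strand, which held 441 counts, so the origin of so few reads is uncertain. At these levels EGLN3 was close to undetected in both groups, at 0.05 FPKM or less.

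CA9 (ENSG00000107159, chromosome 9, 35673928 to 35681159, plus strand) encodes carbonic anhydrase IX, a cell-surface enzyme of acid balance and a classical HIF-1 target. It had 547 and 245 counts in the untreated pair and 343 and 283 in the treated pair, or 20.6 and 13.7 CPM against 15.9 and 16.9 CPM. Both treated libraries lay between the untreated ones. The log2 fold change of -0.07 had an edgeR 95% interval from -0.72 to 0.58 (adjusted p = 0.938), and was 0.26 without untreated replicate 1. CA9 overlaps ARHGEF39 on the opposite strand over 1939 bases. That gene held 575 counts over the 4 libraries, and the strand setting of the counting is not given in the sources used here.

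BNIP3 (ENSG00000176171, chromosome 10, 131967684 to 131981967, minus strand) encodes a mitochondrial receptor for mitophagy. It stood at 29 and 42.1 CPM in the untreated pair and 41.8 and 39.7 CPM in the treated pair. Untreated replicate 1 was the low library, and the other 3 were close to each other. The log2 fold change was 0.20 with an edgeR 95% interval from -0.39 to 0.79 (adjusted p = 0.772), and -0.04 without that library. The 39 pseudogenes named after BNIP3 held 23 counts together over the 4 libraries.

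NDRG1 (ENSG00000104419, chromosome 8, 133237175 to 133302022, minus strand) encodes a stress-responsive cytoplasmic protein that is induced by hypoxia and by iron chelation. It was the most counted of the 10 genes, with 3416 and 2315 counts in the untreated pair and 3297 and 2615 in the treated pair. These were 129 and 130 CPM against 153 and 156 CPM, so the replicates of each group were close and the groups did not overlap. The log2 fold change was 0.26, or 1.20-fold higher, by edgeR (standard error 0.24, 95% interval -0.28 to 0.80, adjusted p = 0.663). It was 0.26 to 0.30 with each library left out in turn.

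ADM (ENSG00000148926, chromosome 11, 10305073 to 10307397, plus strand) encodes adrenomedullin, a vasodilator peptide and one of the most responsive hypoxia targets in many cells. It had 4 and 2 counts in the untreated pair and 1 and 3 in the treated pair, and the groups overlapped. The ratio of Antcin K to untreated was 0.798 with an exact 95% counting interval of 0.166 to 3.37, so no difference was detectable at this depth. In both groups ADM stood below 0.1 FPKM, while CA9, BNIP3 and NDRG1 in the same libraries stood at 7.24 FPKM or more. ADM2, the gene of a related peptide, had 189 and 74 counts in the untreated pair and 36 and 63 in the treated pair, giving -1.07 on the log2 scale (edgeR, adjusted p = 0.403), or -0.56 without Antcin K replicate 1. The adrenomedullin receptor gene CALCRL had 6 counts over the 4 libraries, and its accessory protein gene RAMP2 had 0.

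**Figure D3:**
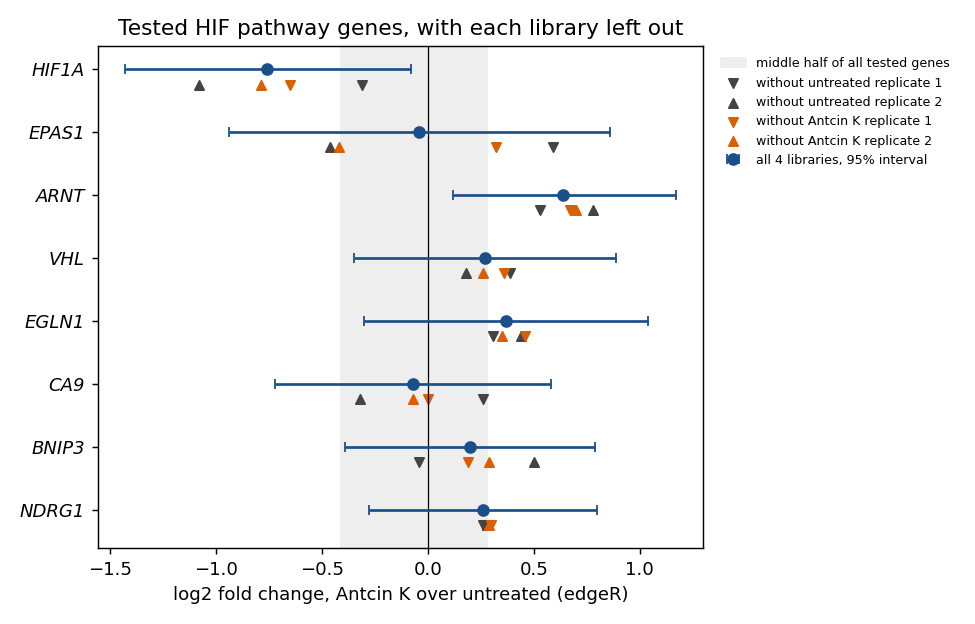
Log2 fold changes of the 8 tested genes, Antcin K over untreated, from edgeR with 95% intervals (blue) and with each library left out in turn (triangles). The grey band runs from the lower to the upper quartile of all 14717 genes. HIF1A ranged from -1.08 to -0.31 and EPAS1 from -0.46 to 0.59 across these fits, while NDRG1 stayed between 0.26 and 0.30.

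Of 16 other genes of HIF control, 15 were tested, 8 with a higher and 7 with a lower mean after Antcin K, with a median log2 fold change of 0.06. By edgeR 0 were called, and 0 had an unadjusted p under 0.05. The median was still 0.06 when untreated replicate 2 was dropped, and 0.12 when untreated replicate 1 was. Dropping Antcin K replicate 1 gave 0.02, and dropping Antcin K replicate 2 gave -0.02. BMAL1, listed in the table as ARNTL, encodes a circadian relative of ARNT and had a log2 fold change of 0.59 (edgeR, adjusted p = 0.435). OS9, a lectin gene of endoplasmic reticulum quality control, had 0.51 (edgeR, adjusted p = 0.410). EGLN2, the gene of the third prolyl hydroxylase PHD1, had -0.50 (edgeR, adjusted p = 0.512) and both treated libraries below both untreated ones. The ubiquitin ligase subunit genes ELOB and RBX1 were the most abundant of the list, with overlapping groups. Their log2 fold changes were -0.39 and 0.06, turning to 0.06 without untreated replicate 2 for ELOB and to -0.45 without untreated replicate 1 for RBX1. HIF1AN, outside the naming rule and chosen after its values were seen, encodes the asparaginyl hydroxylase that blocks HIF transactivation. It stood at 5.82 and 6.88 FPKM in the untreated pair and 8.32 and 8.81 FPKM in the treated pair (log2 fold change 0.38, edgeR, adjusted p = 0.541). The α subunit HIF3A had 2 counts in all.

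Among 11 relatives and partners of the 10 genes, 6 were tested, with 2 higher and 4 lower means (median log2 fold change -0.24). The split was 3 to 3 with DESeq2 size factors or library totals alone. By edgeR 0 were called, and 1 of 6, ADM2, had an unadjusted p under 0.05, against 12.4% of all genes. The median was -0.23 without untreated replicate 2 and -0.46 without untreated replicate 1. NDRG3, a lactate-responsive relative of NDRG1, stood at 38.2 to 48.5 FPKM with a log2 fold change of 0.21. NDRG4 had -0.47, with both treated libraries below both untreated ones, or -0.23 without untreated replicate 2. PAM, the gene of the enzyme that amidates adrenomedullin and other peptides, had -0.60, or -0.02 without untreated replicate 1. Adjusted p for these 3 was 0.470 to 0.730 (edgeR).

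Other HIF target genes gave no common direction. Of 61 listed, 55 were tested, 26 with a higher and 29 with a lower mean after Antcin K, against 46.2% higher over all genes. The median log2 fold change was -0.01. By edgeR 0 of the 55 were called and 6 had an unadjusted p under 0.05, against 12.4% of all genes, and DESeq2 called 0. The median was 0.13 without untreated replicate 2 and -0.06 without untreated replicate 1. With the crossed replicate block 3 of the 55 were called, against 1430 of all 14717 genes. Both treated libraries lay above both untreated ones for 15 of the 55 and below for 15, close to the shares over all genes of 22.6% and 23.3%.

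Genes of glucose transport and glycolysis, which HIF-1 raises to sustain ATP without oxygen, had 8 higher and 13 lower means among 21 tested, or 10 and 11 on library totals alone. Both treated libraries were higher for 6 of the 21 and lower for 7, against 22.6% and 23.3% of all genes tested. The median log2 fold change was -0.09. Dropping untreated replicate 2 moved it to 0.24, and dropping untreated replicate 1 moved it to -0.21. It was -0.07 when Antcin K replicate 1 was dropped, and 0.01 when Antcin K replicate 2 was. PFKFB4, a kinase-phosphatase that tunes glycolytic flux, stood at 17.2 and 20.4 FPKM in the untreated pair and 11.4 and 11.3 FPKM in the treated pair (log2 fold change -0.78, standard error 0.24, edgeR, adjusted p = 0.366). SLC16A3, the lactate exporter gene, had -0.63, and the aldolase gene ALDOA -0.51, each with non-overlapping groups. The highly abundant GAPDH and ENO1 had overlapping groups and log2 fold changes of -0.09 and 0.01. The sign turned with 1 library left out for both, to 0.37 for GAPDH without untreated replicate 2 and to -0.40 for ENO1 without untreated replicate 1.

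The genes of collagen hydroxylation and oxidative folding were divided. P4HA2, a collagen prolyl 4-hydroxylase subunit, stood at 2.91 and 3.17 FPKM in the untreated pair and 5.68 and 5.44 FPKM in the treated pair (log2 fold change 0.82, standard error 0.23, edgeR, adjusted p = 0.366). The lysyl hydroxylase gene PLOD1 had 0.44, also with both treated libraries higher. PLOD2, a lysyl hydroxylase that shapes collagen cross-links, stood at 3.64 and 2.11 FPKM in the untreated pair and 1.29 and 1.75 FPKM in the treated pair (log2 fold change -0.96, or -0.56 without untreated replicate 1). P4HA1 had -0.10 with overlapping groups, and 0.08 without Antcin K replicate 2. Of the 5 genes, 2 had a higher and 3 a lower mean.

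Secreted and vascular targets had 2 higher and 7 lower means among 9 tested, with a median log2 fold change of -0.36. STC1, the gene of the glycoprotein hormone stanniocalcin 1, had 168 and 55 counts in the untreated pair and 43 and 41 in the treated pair (log2 fold change -1.10, or -0.47 without untreated replicate 1). PGF, a placental relative of VEGF, had -0.57 and the collagen cross-linking oxidase gene LOX -0.50, or -0.28 without that library. MIF, a secreted cytokine gene and the most abundant of the list, had -0.19 with overlapping groups, or 0.28 without untreated replicate 2. VEGFA, the best known HIF target among vascular factors and outside the naming rule, stood at 15.8 and 11.7 CPM in the untreated pair and 10.3 and 11.2 CPM in the treated pair (log2 fold change -0.36, or -0.12 without untreated replicate 1). Adjusted p for these 5 genes was 0.386 to 0.823 (edgeR).

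The list of targets in transcription, chromatin and feedback also held genes of other roles, such as VLDLR and TFRC. It had 12 higher and 1 lower mean among 13 tested, or 11 to 2 with upper-quartile scaling. The median log2 fold change was 0.20. The histone demethylase gene KDM4C had 0.44, the oxygenase gene JMJD6 0.49 and the lipoprotein receptor gene VLDLR 0.47, each with non-overlapping groups. The abundant HMOX1 and BHLHE40 had 0.15 and 0.16 with overlapping groups, and HMOX1 had -0.01 without untreated replicate 1. Adjusted p for these 5 genes was 0.429 to 0.838 (edgeR), and the groups lay apart for 6 of the 13, each higher after Antcin K, beside 22.6% higher and 23.3% lower over all genes. That difference was not tested. Among 4 targets in cell death, growth and mitophagy, the BNIP3 relative BNIP3L had -0.42 and FAM162A 0.47, each with non-overlapping groups, while DDIT4, an inhibitor of mTOR complex 1, had -0.07 and turned to 0.55 without untreated replicate 2. That list had 1 higher mean, or 2 with library totals alone. The carbonic anhydrase gene CA12 and the lipid droplet genes HILPDA and PLIN2 had log2 fold changes of -0.07, -0.08 and 0.03 with overlapping groups. With upper-quartile scaling all 3 were below 0, and each changed sign with 1 library left out.

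**Figure D4:**
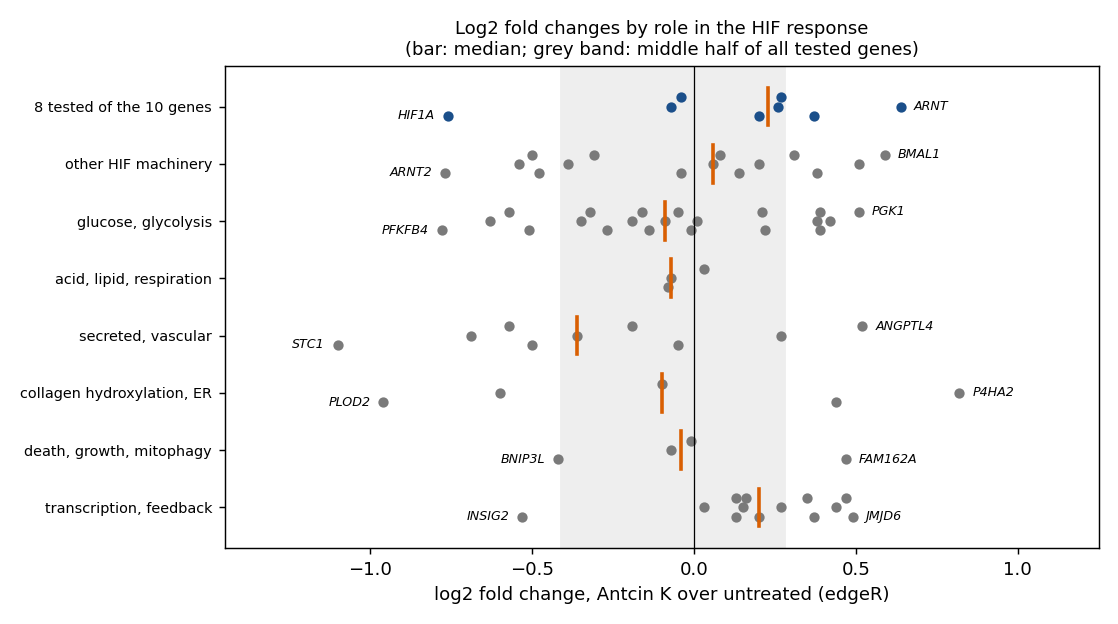
Log2 fold change of each tested gene, Antcin K over untreated (edgeR), by role in the HIF response, with an orange bar at each median and the lowest and highest gene named in lists of over 3 genes. The grey band runs from the lower to the upper quartile of all tested genes. Medians ran from -0.36 for secreted and vascular targets to 0.23 for the 8 tested genes described in full, and 0 genes passed the test.

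The deposited annotation places 9 of the 10 genes under a response to hypoxia or cellular response to hypoxia term and 5 in the HIF-1 signaling pathway. Of the other genes under the cellular response term, 71 were tested, 25 with a higher and 46 with a lower mean (median log2 fold change -0.19). Over all genes tested 46.2% were higher and the median was -0.05. Both treated libraries lay above both untreated ones for 12 of the 71 and below for 25, beside 22.6% and 23.3% of all genes. These differences were not tested. Of the other genes of the signaling pathway, 125 were tested, 68 higher and 57 lower (median 0.03). By edgeR 0 genes of either list were called, and at unadjusted p under 0.05 the counts were 15 of 71 and 10 of 125, against 12.4% of all genes. DESeq2 called 0 and 1 (background 0.399%), and edgeR with no count filter called 2 and 1 (0.723%). The medians were -0.24 and 0.06 without untreated replicate 2, and -0.11 and 0.04 without untreated replicate 1. These annotation lists were added after the data were seen.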

How the data were processed

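RNA of 4 JJ012 libraries was sequenced as paired-end reads after TRIzol extraction, per the labels' protocols. Cutadapt 1.9.1, HISAT2 2.2.1, HTSeq 0.6.1 and hg38 are named in the submitters' processing notes. The sources used here do not give the strand setting, multimapping rule or annotation release. The deposited counts are raw fragments per Ensembl gene, and the FPKM values are the authors' own, per the file headers. FPKM recomputed from the counts, the deposited exonic lengths and the library totals matched within 0.005. Coordinates are as deposited.

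Groups came from the treatment label and replicate numbers from the titles. Counts were filtered by filterByExpr (minimum 10), normalised with TMM, then tested in edgeR 4.0.16 (robust quasi-likelihood, group only; R 4.3.3), with Benjamini-Hochberg adjustment over 14717 genes. DESeq2 1.42.0 and limma 3.58.1 served for alternatives. The test was tried on simulated data. Intervals for EGLN3 and ADM cover counting error only.

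The CPM values were computed here from the deposited counts. The genes and lists were chosen with earlier results of these data known. All 10 genes are named, and from each other list the 3 with the lowest p and the 2 most abundant, except 1 gene that is not reported here. Promoters are RefSeq's (GRCh38.p14), present for 8 of 10 genes. Of 88 list symbols, 88 matched.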

Additional observations from a re-analysis of the deposited data

How the results depend on the processing

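Each group held only 2 libraries, and EGLN3 and ADM had too few counts to pass the filter. The signs of HIF1A, ARNT, VHL, EGLN1 and NDRG1 were the same under all 17 alternatives. EPAS1, at -0.04, had 0.004 without the count filter, 0.031, 0.058 and 0.031 on FPKM (pseudocount 1, pseudocount 0.1, and 1 with no minimum), 0.008 with the replicate block and 0.009 with it crossed. Leaving out each library gave EPAS1 -0.46 to 0.592. CA9, at -0.07, had 0.010, 0.014 and 0.010 in these FPKM fits and -0.32 to 0.262 with a library left out, with 0.003 without Antcin K replicate 1. BNIP3 had -0.041 to 0.50 with a library left out, the lowest without untreated replicate 1. The cause was not tested.

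Over all genes, edgeR called 0, against 208 without the count filter, 53 with DESeq2, 26 with the replicate block and 3 to 3971 with a library left out. The count was 1429 without untreated replicate 1, 3971 without untreated replicate 2, 8 without Antcin K replicate 1 and 3 without Antcin K replicate 2. Without an untreated library the remaining one is assumed to vary like the Antcin K pair. The log2 fold change of HIF1A was -1.077 without untreated replicate 2 and -0.314 without untreated replicate 1. For ARNT these were 0.778 and 0.535. In the planned edgeR, DESeq2 and limma fits of all 4 libraries, adjusted p ran from 0.323 to 0.717 for HIF1A. For ARNT it ran from 0.360 to 0.746.

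The replicate numbers are not known to pair samples. Same-numbered deviations correlated at -0.32 across genes, so the crossed pairing, chosen after seeing the data, was also fitted. It called 1430 genes, with HIF1A (0.0191) and ARNT (0.0329) as the 2 of these 10. The plain replicate block called 0 of the 10. The median of the 55 other targets, at -0.01, was 0.048 and 0.067 on FPKM with pseudocounts of 1 and 0.1, and -0.057 to 0.133 with a library left out. The median of the 8 genes, at 0.23, ran from 0.134 to 0.311. The lowest value, on FPKM with no minimum, also takes in EGLN3 and ADM, as does the fit with no count filter.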
